A study of Homo sapiens with 6 samples.

Results

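The 10 lipid droplet and fatty acid storage genes PLIN2, PLIN3, HILPDA, DGAT1, DGAT2, PNPLA2, G0S2, CPT1A, ACSL3 and FABP5 were examined in bulk RNA-seq of SW839, an established renal cell carcinoma line. They were chosen by symbol for their known part in fat storage, of which clear cell renal carcinoma is a familiar case. Earlier results of these data were known when they were chosen. All 10 symbols were found among the 30267 genes of the deposited table. The table held 6 libraries, 3 of cells labelled shRNF25, which carry a short hairpin RNA against the E3 ubiquitin ligase RNF25, and 3 of cells labelled shControl, whose library names carry that of the empty pLKO vector. The shRNF25 library names share a stem and a running number, while the control names differ in form from each other. By the study's methods the cells were infected with lentivirus and selected with puromycin as stable lines, so that both groups share the vector and the selection. A single hairpin name appears in the labels, and the treatment text of the control libraries also speaks of the RNF25 hairpin, so that the groups rest on titles, genotype labels and library names. The comparison asks how these genes differed in level between cells with and without the RNF25 hairpin.

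Cells store surplus fatty acids as triglyceride in lipid droplets. Acyl-CoA synthetases such as ACSL3 activate fatty acids, DGAT1 and DGAT2 add the last acyl chain of triglyceride, and perilipins such as PLIN2 and PLIN3 coat the droplet. The lipase PNPLA2 (ATGL) starts the breakdown of the stored fat, and the small proteins G0S2 and HILPDA inhibit it. CPT1A passes fatty acids into mitochondria for oxidation, and FABP5 carries them through the cytosol. Clear cell renal carcinoma is named for cytoplasm that looks empty once its lipid and glycogen have been washed out, and in that tumor PLIN2 and HILPDA are known targets of hypoxia-inducible factors.

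The libraries held 18647460 to 19943154 reads counted on genes. The hairpin's target, RNF25, was lower in shRNF25 at 41.1% of its control mean (log2 fold change -1.27 ± 0.150 standard error, limma, adjusted p = 0.000585). shControl replicate 1 stood apart: mitochondrially encoded genes took 12.1% of its reads, against 3.58% to 4.44% in the other 5 libraries, and values without it are given where they change the call of one of the 10 genes or of a named partner. The keratin genes KRT8 and KRT18, the adhesion gene EPCAM and the renal factor PAX8 were detected in every library. CA9, the clear cell marker that is induced when VHL is lost, was too low to be tested. Its normalized counts in replicates 1, 2 and 3 were 7.74, 12.3 and 50.7 in shControl and 8.20, 1.85 and 4.77 in shRNF25. LHX1 lay between 0 and 4.62 and CDH6 between 0 and 13.0. The normalized count of KRT8 was 22206 to 31848 in shControl and 35088 to 38009 in shRNF25, that of EPCAM 4797 to 5912 and 4205 to 4519, and that of PAX8 118.0 to 140.3 and 76.7 to 109.6, so that KRT8 was higher and EPCAM and PAX8 lower in shRNF25 without overlap, and none of these passed the test. KRT18 overlapped. The summed level of 8 leukocyte and macrophage markers was 63.0 to 74.9 in shControl and 73.4 to 102.1 in shRNF25. For 8 endothelial and fibroblast markers it was 506.9 to 728.5 and 518.1 to 674.3. For 5 adipocyte markers it was 1087 to 2378 and 1832 to 2098, nearly all of it PLIN4, with CIDEA and CIDEC at 3 reads or fewer in every library. By the test described next, ITGAM, KDR, FABP4 and PLIN1 of these markers were higher and CDH5 was lower in shRNF25. CDH5 went from a mean of 124.7 in shControl to 5.89 in shRNF25, a log2 fold change of -4.12. CDH5 passed the filter of that test through the shControl libraries alone, with 3.64, 8.31 and 5.72 in shRNF25, so that it could be tested only as lower. KDR was at 1.55 to 1.93 in log2 fold change over 16 other settings. The sums do not show these changes of single genes. The call of ITGAM held in 5 of 15 other settings of the processing. The part of these levels in the results below was not tested.

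Of the 10 genes, 4 fell and 1 rose in shRNF25. HILPDA, PLIN2, G0S2 and DGAT1 were lower, CPT1A was higher, and the other 5, PLIN3, DGAT2, PNPLA2, ACSL3 and FABP5, did not pass the test. The test was limma on log2(normalized count + 1), with an adjusted p below 0.05 over 16554 tested genes, those that reached a normalized count of 10 in 3 or more libraries. All 10 genes passed that filter, with 215 reads or more in every library. Of all tested genes, 21.3% were called, 10.8% as lower and 10.5% as higher, against 5 of these 10. With a fold change of at least 1.5 in addition, as the study's methods ask, HILPDA and PLIN2 were lower and CPT1A was higher, where 7.10% of all tested genes were lower and 8.65% were higher. In 5 of the 10 genes every shRNF25 library lay below every shControl library, and in 1 every shRNF25 library lay above, against 21.8% and 20.7% of all tested genes. The median log2 fold change was -0.28 over the 10 genes and -0.01 over all tested genes. Fold changes are relative to all genes by this scaling, and the table cannot tell fewer cells that use a gene from less of its RNA per cell.

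**Figure D1:**
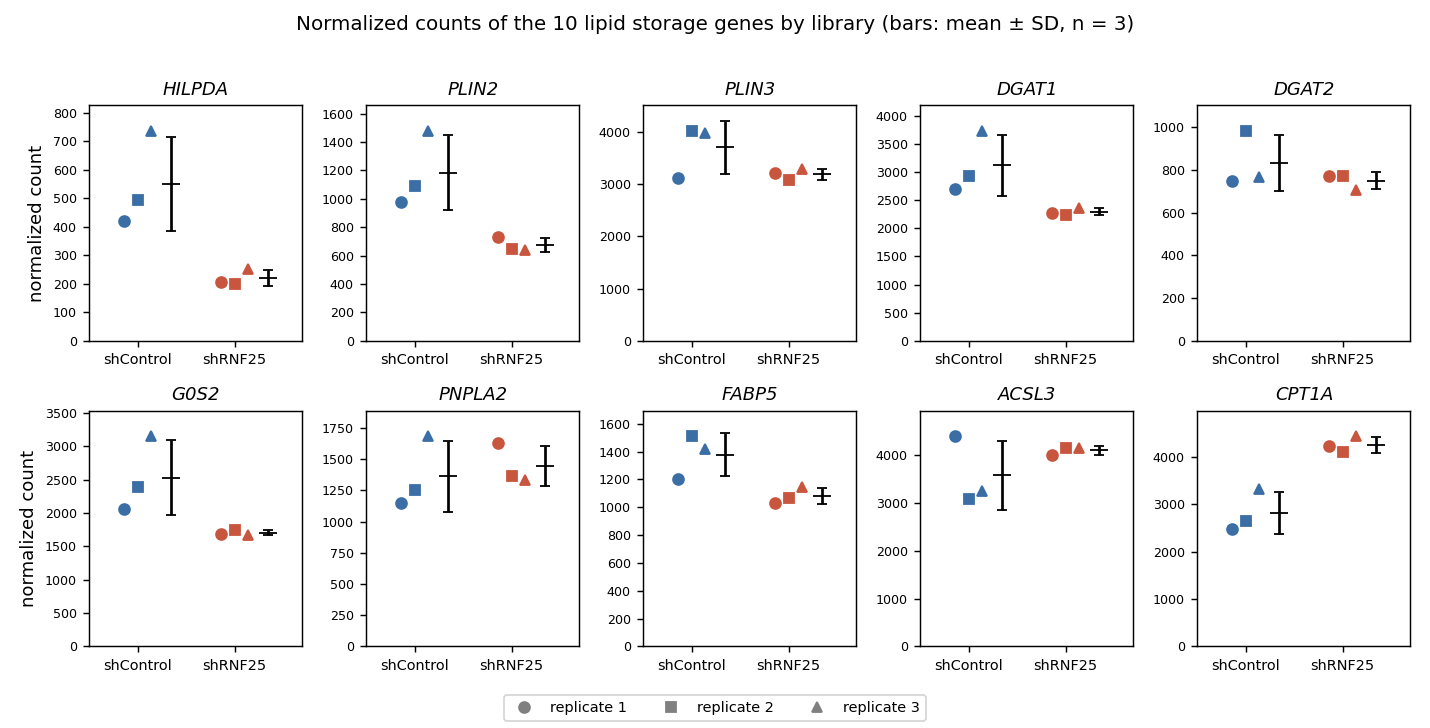
Normalized count (vertical axes, each from 0) of each of the 10 genes in the 3 shControl libraries (blue) and the 3 shRNF25 libraries (red), with the replicate shown by the marker shape and bars for the mean and SD of each group (n = 3). The groups are apart for HILPDA, PLIN2, DGAT1, G0S2, FABP5 and CPT1A and overlap for PLIN3, DGAT2, PNPLA2 and ACSL3.

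The droplet proteins HILPDA and PLIN2 had the largest falls of the 10. HILPDA (hypoxia-inducible lipid droplet-associated protein) is annotated by GENCODE 29 on the plus strand of chromosome 7, bases 128455849 to 128458418 of GRCh38. Its normalized count was 421.2, 495.6 and 737.2 in the shControl libraries and 207.8, 198.6 and 250.7 in the shRNF25 libraries, here and throughout in the order of replicates 1, 2 and 3. The highest shRNF25 library was well below the lowest control, and the control libraries differed from each other more than the shRNF25 libraries did. The mean fell from 551.3 ± 165.2 to 219.0 ± 27.8 (SD, n = 3 each), which is 39.7% of the control. This was a log2 fold change of -1.29 with a 95% interval of -1.76 to -0.83 (standard error 0.205, limma, adjusted p = 0.00266). In its transcript, 15.7% of the stretches of 50 bases are also found in 11 other genes, among them overlapping noncoding transcripts on the same strand, so that reads may have been set aside or assigned to those genes.

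PLIN2 (perilipin 2, adipophilin), the perilipin of most cells that do not specialize in fat, lies on chromosome 9 from 19108375 to 19149290 on the minus strand. Its normalized count was 977.2, 1092 and 1480 in the 3 shControl libraries and 731.7, 649.2 and 638.6 in the 3 shRNF25 libraries. Again the groups did not overlap, and shControl replicate 3 was the highest library. The mean fell from 1183 ± 263.4 to 673.2 ± 50.9 (SD, n = 3 each), 56.9% of the control, with a log2 fold change of -0.79 and a 95% interval of -1.15 to -0.44 (standard error 0.158, limma, adjusted p = 0.00790). For both HILPDA and PLIN2 a two-sided exact permutation test on log2(normalized count + 1) gave p = 0.1, the smallest that 3 libraries against 3 allow.

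PLIN3 (TIP47), the paralog that moves from the cytosol onto small new droplets, lies on chromosome 19 from 4838341 to 4867768 on the minus strand. Its normalized count was 3122, 4028 and 3976 in shControl and 3210, 3077 and 3293 in shRNF25. Replicates 2 and 3 of the control were above every shRNF25 library, and shControl replicate 1 lay among the shRNF25 values. Its log2 fold change was -0.21, with a 95% interval of -0.48 to 0.07 (limma, adjusted p = 0.259). Without shControl replicate 1, the library with the high share of mitochondrial reads, it was -0.33 with an adjusted p of 0.00637 from limma. Within a library, the log2 ratio of PLIN2 to PLIN3, which does not depend on that library's scaling, was -1.67, -1.88 and -1.43 in shControl and -2.13, -2.24 and -2.36 in shRNF25. The ratio was lower in every shRNF25 library than in every control, with a mean difference of -0.59 (two-sided exact permutation test, p = 0.1, adjusted p = 0.133 over the 4 ratios tested).

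The sequences upstream of this pair of paralogs are shown because PLIN2 fell and PLIN3 did not pass the test. They are the parts of the 250 bases before each gene's RefSeq start that no GENCODE 29 exon covers, 166 bases for PLIN2 (chr9:19127577-19127742, minus strand) and 149 bases for PLIN3 (chr19:4867769-4867917, minus strand) of GRCh38.p14, written 5′ to 3′ along the gene. Capitals mark ACGTG, a form of the core of the site that hypoxia-inducible factors bind. The other form of that core, GCGTG, was not searched, and it occurs in the printed PLIN3 sequence.
PLIN2: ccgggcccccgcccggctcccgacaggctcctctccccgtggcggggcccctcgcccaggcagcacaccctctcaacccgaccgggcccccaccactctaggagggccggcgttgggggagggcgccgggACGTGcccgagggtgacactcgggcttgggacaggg
PLIN3: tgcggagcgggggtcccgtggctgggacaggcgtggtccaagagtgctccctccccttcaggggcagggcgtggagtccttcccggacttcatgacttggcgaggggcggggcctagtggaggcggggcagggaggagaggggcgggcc
Searched on both strands, the 250 bases of PLIN2 held ACGTG 120 bases before the start, and again on both strands of an overlapping site 69 and 68 bases before the start, in the part not printed. The 250 bases of PLIN3 held no ACGTG. Of 35116 RefSeq promoters, 18.5% held ACGTG in the same window. Of the 10 genes, 6 were matched in that table: PLIN2, PLIN3, PNPLA2, G0S2, CPT1A and ACSL3. PLIN2 was the one with ACGTG. The motif of NF-κB was found in the window of CPT1A and in 9.96% of all promoters. In CPT1A it lay 61 bases before the start, among the 133 bases of the window that GENCODE 29 exons cover. AGGTCANAGGTCA, the exact form of the repeat that PPAR and RXR bind, was in none of the 6 and in 0.0171% of all promoters. A match that rare would be missing from nearly any 6 genes, so that its absence here says little. These are matches of letters, and no binding was measured.

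Of the enzymes that make triglyceride, DGAT1 fell and DGAT2 did not pass the test. The 2 proteins catalyze the same step but are unrelated in sequence. DGAT1, on chromosome 8, had normalized counts of 2691, 2923 and 3734 in shControl and 2276, 2237 and 2361 in shRNF25. The groups did not overlap, and the mean of shRNF25 was 73.5% of the control. The log2 fold change of DGAT1 was -0.43, with a 95% interval of -0.73 to -0.13 (standard error 0.132, limma, adjusted p = 0.0464). The call stands close to the threshold of 0.05, and it held in 6 of 16 other settings of the processing. The 2 count tests differed, with an adjusted p of 0.0274 from DESeq2 and 0.0558 from edgeR. DGAT1 shares 139 exon bases with HSF1 on the other strand, and whether reads were counted by strand is not given in the sources used here.

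DGAT2, on chromosome 11 from 75759512 to 75801535 on the plus strand, had 746.2, 982.9 and 768.5 in shControl and 771.8, 771.1 and 705.4 in shRNF25. A single control library, replicate 2, stood above the rest, and the other 5 values lay close together. DGAT2 differed by -0.14 in log2, with a 95% interval of -0.44 to 0.16 (limma, adjusted p = 0.480), and by -0.016 without shControl replicate 2. The log2 ratio of DGAT2 to DGAT1 overlapped between the groups, with means of -1.90 ± 0.36 in shControl and -1.61 ± 0.11 in shRNF25 (SD, n = 3 each; two-sided exact permutation test, p = 0.2, adjusted p = 0.2). The highest ratio and the lowest ratio among the controls were those of replicates 2 and 3, and without replicate 3 the difference of the ratio went from 0.29 to 0.098.

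At the lipase, the inhibitor G0S2 fell while its target PNPLA2 did not pass the test. G0S2 (G0/G1 switch gene 2) lies on chromosome 1 from 209675420 to 209676388 on the plus strand. Its normalized count was 2062, 2389 and 3153 in shControl and 1690, 1751 and 1680 in shRNF25. The 3 shRNF25 values lay close together while the controls spread widely, and the groups did not overlap. The mean of shRNF25 was 67.4% of the control, with a log2 fold change of -0.55 and a 95% interval of -0.89 to -0.21 (standard error 0.151, limma, adjusted p = 0.0309). The call held in 10 of 16 other settings. It was lost without shControl replicate 2 (limma, adjusted p = 0.0633) and without any 1 of the shRNF25 replicates (limma, adjusted p = 0.116, 0.0943 and 0.115).

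PNPLA2 (ATGL), on chromosome 11 from 818902 to 825573 on the plus strand, had normalized counts of 1149, 1257 and 1684 in shControl and 1629, 1367 and 1336 in shRNF25. The highest and the lowest of the 6 libraries were both controls. PNPLA2 differed by 0.10 in log2, with a 95% interval of -0.26 to 0.45 (limma, adjusted p = 0.696), and by -0.016 without shControl replicate 1. Within a library the log2 ratio of G0S2 to PNPLA2 was 0.84, 0.93 and 0.90 in shControl and 0.05, 0.36 and 0.33 in shRNF25. The controls were tight and the shRNF25 libraries all lower, with a mean difference of -0.64. The log2 ratio of HILPDA, the other inhibitor, to PNPLA2 was -1.45, -1.34 and -1.19 in shControl and -2.97, -2.78 and -2.41 in shRNF25, a mean difference of -1.39. Each of these ratios separated the groups without overlap (two-sided exact permutation test, p = 0.1, adjusted p = 0.133 over 4 ratios).

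**Figure D2:**
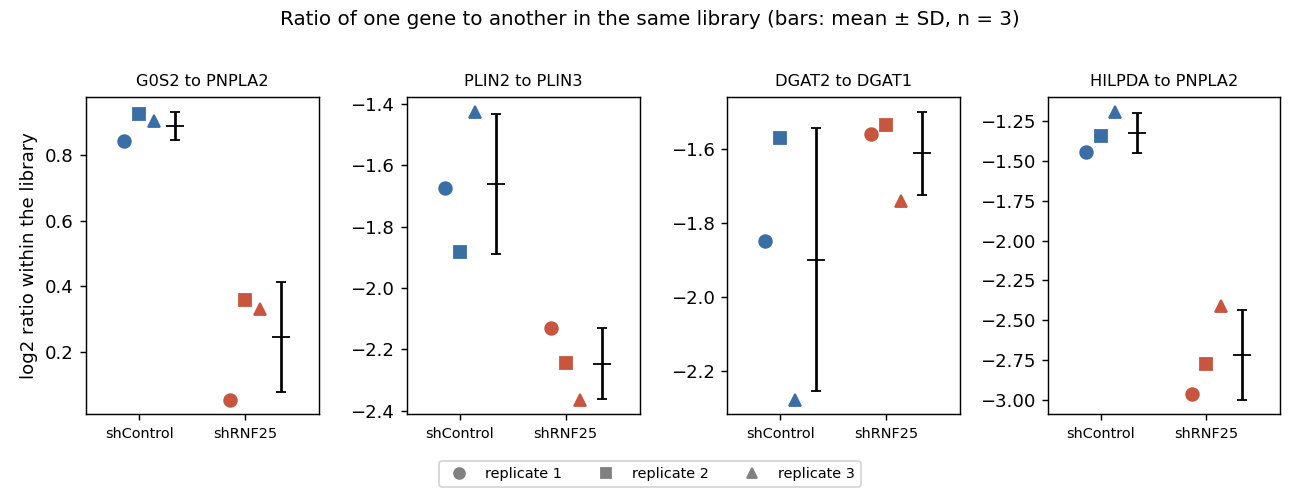
Log2 ratio of one gene's normalized count to another's in the same library (vertical axes), for 4 pairs, in the 3 shControl (blue) and 3 shRNF25 libraries (red), with bars for the mean and SD (n = 3). The ratios of G0S2 and HILPDA to PNPLA2 and of PLIN2 to PLIN3 are lower in all 3 shRNF25 libraries, and that of DGAT2 to DGAT1 overlaps.

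Upstream sequences of the inhibitor and the lipase are shown for the same reason, as one fell and the other did not pass the test. They cover 164 bases before the start of G0S2 (chr1:209675248-209675411, plus strand) and 238 bases before that of PNPLA2 (chr11:818664-818901, plus strand) of GRCh38.p14, again without bases covered by exons. Neither held ACGTG or the other 2 motifs, so that no letter is in capitals. GCGTG, which was not searched, occurs in the printed G0S2 sequence.
G0S2: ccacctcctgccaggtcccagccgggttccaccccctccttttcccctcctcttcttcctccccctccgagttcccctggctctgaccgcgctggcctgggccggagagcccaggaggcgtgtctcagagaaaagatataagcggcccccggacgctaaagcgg
PNPLA2: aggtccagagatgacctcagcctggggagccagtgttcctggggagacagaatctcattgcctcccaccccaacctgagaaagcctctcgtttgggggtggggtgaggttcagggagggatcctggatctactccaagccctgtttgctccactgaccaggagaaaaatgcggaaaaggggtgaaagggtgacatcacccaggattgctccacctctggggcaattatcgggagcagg

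CPT1A, the outer-membrane carnitine palmitoyltransferase that limits the entry of long-chain fatty acids into mitochondria, was the gene of the 10 that rose. It lies on chromosome 11 from 68754620 to 68844410 on the minus strand. Its normalized count was 2465, 2652 and 3316 in shControl and 4216, 4089 and 4427 in shRNF25. Every shRNF25 library was above every control, and the mean was 151% of the control. The log2 fold change was 0.61, with a 95% interval of 0.32 to 0.89 (standard error 0.126, limma, adjusted p = 0.00961), and the two-sided exact permutation test gave p = 0.1. The call held in 14 of 16 other settings and was lost without shRNF25 replicate 1 or 3 (limma, adjusted p = 0.0520 and 0.0592). CPT2, the inner-membrane partner of CPT1A, had a log2 fold change of -0.04 (limma, adjusted p = 0.832).

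FABP5 and ACSL3, which carry and activate fatty acids, did not pass the test with all 6 libraries. FABP5, on chromosome 8, had normalized counts of 1206, 1510 and 1418 in shControl and 1031, 1064 and 1147 in shRNF25. The groups did not overlap, although the lowest control was close to the highest shRNF25 library. FABP5 differed by -0.35 in log2, with a 95% interval of -0.61 to -0.08 (standard error 0.118, limma, adjusted p = 0.0674). As many as 31.3% of the 50-base stretches in its transcript are shared with 8 other genes, most of them FABP5 pseudogenes, whose summed mean normalized count was 41.4, so that its counts are uncertain by the reads that were set aside or exchanged.

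ACSL3, on chromosome 2 from 222860934 to 222944639 on the plus strand, had 4399, 3086 and 3252 in shControl and 4003, 4148 and 4161 in shRNF25. shControl replicate 1 was the highest of all 6 libraries and the other 2 controls were the lowest. ACSL3 differed by 0.22 in log2, with a 95% interval of -0.10 to 0.53 (limma, adjusted p = 0.303).

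Leaving out shControl replicate 1 moved the calls of 3 of these genes. PLIN3 and FABP5 then passed as lower, with FABP5 at -0.44 (adjusted p = 0.00280 from limma), and ACSL3 passed as higher, at 0.37 (adjusted p = 0.00328 from limma). Without that library 6 of the 10 genes were lower and 2 were higher, while 18.0% of all tested genes were lower and 15.8% were higher. The fit without it leaves 2 control libraries against 3 shRNF25 libraries. HILPDA, PLIN2, G0S2, DGAT1 and CPT1A were called with and without it. The part of the mitochondrial share of that library in these values was not tested.

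**Figure D3:**
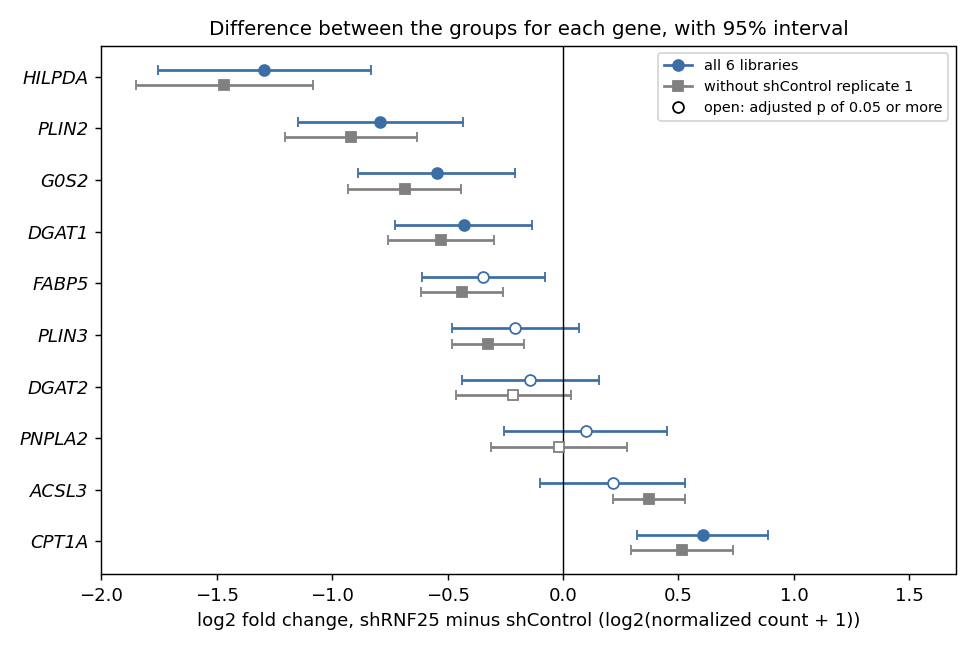
Log2 fold change of shRNF25 against shControl on the log2(normalized count + 1) scale (horizontal axis) for each of the 10 genes with its 95% interval from limma, over all 6 libraries (blue circles) and without shControl replicate 1 (grey squares), open where the adjusted p was 0.05 or more. Over all 6 libraries 5 circles are filled, from -1.29 for HILPDA to 0.61 for CPT1A, and PLIN3, FABP5 and ACSL3 fill when the replicate is left out.

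Each of the 10 genes varied more between control libraries than between shRNF25 libraries. The coefficient of variation was 11.3% to 30.0% in shControl and 2.14% to 12.7% in shRNF25, highest for HILPDA in both groups. The controls were the more variable group in 83.3% of all tested genes. shControl replicate 3 was the highest control for 6 of the 10 genes, PLIN2, HILPDA, DGAT1, PNPLA2, G0S2 and CPT1A, against 31.6% of all tested genes. For HILPDA, PLIN2, G0S2 and DGAT1 the fall is therefore smallest against shControl replicate 1 and largest against replicate 3.

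Levels were compared between genes as normalized count per kilobase of exon (the union of exons in GENCODE 29). That union counts the exons of all annotated transcripts of a gene, whether or not these cells use them. It was 5086 bases for PLIN2, 7905 for DGAT2 and 866 for G0S2. The ranks and overlaps below hold for this length only and may differ with the length of a single transcript, which was not tested. In shControl G0S2 was the highest at 2926 ± 646.5 (SD, n = 3), followed by PLIN3 at 1318 ± 180.9 (SD, n = 3), and DGAT2 was the lowest at 105.3 ± 16.5 (SD, n = 3). Between them came DGAT1, FABP5, ACSL3, CPT1A, PNPLA2, HILPDA and PLIN2 in falling order of their means per kilobase, and neighbors among these 7 overlapped in range. In shRNF25 CPT1A moved from rank 6 to rank 3, at 646.5 ± 26.0 (SD, n = 3), without overlap with ACSL3 below it. HILPDA at 105.8 ± 13.4 (SD, n = 3) overlapped DGAT2 at 94.8 ± 4.83 (SD, n = 3).

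The other genes of lipid storage and use were taken from 7 lists by role, 97 genes with the 10 included. Of these, 91 were in the table and 79 were tested, 11 were lower and 8 were higher in shRNF25, and the median log2 fold change was -0.02. Without the 10, 7 of 69 tested genes were lower and 7 were higher, a share of 20.3%, near the 21.3% of all tested genes. Without shControl replicate 1, 23 of the 79 were lower and 12 were higher, where 18.0% of all tested genes were lower and 15.8% were higher. The list of fatty acid oxidation, in mitochondria and peroxisomes, had the lowest share of calls of the 7: CPT1A alone was called among its 22 tested genes (4.55%), and the median was 0.07. Below 0 in log2 fold change were 7 of the 22, and 15 were above.

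Among droplet coat genes 2 of 6 tested were lower, HILPDA and PLIN2, and 1 was higher, PLIN1, the perilipin of fat cells. PLIN1 was low throughout, at 11.1, 15.4 and 14.0 in shControl and 39.2, 28.6 and 31.5 in shRNF25 (log2 fold change 1.23, standard error 0.260, adjusted p = 0.01005 from limma). PLIN4 and PLIN5 did not pass, at 0.11 and -0.19 with adjusted p-values of 0.780 and 0.750 from limma, and both were lowest in shControl replicate 1 (1038 and 78.5). Without that library PLIN4 was at -0.22 and PLIN5 passed as lower at -0.70 (adjusted p = 0.0139 from limma), and without shControl replicate 3 PLIN5 was at 0.19. The call of PLIN1 was lost without shRNF25 replicate 1 (adjusted p = 0.0654 from limma). CIDEC, which enlarges droplets in fat cells, was at 3 reads or fewer everywhere. Of the 9 tested genes of droplet formation, 2 were higher. METTL7A, a methyltransferase of the endoplasmic reticulum and droplets, rose from 30.5 ± 9.72 to 128.0 ± 11.5 (SD, n = 3 each; log2 fold change 2.08, adjusted p = 0.000644 from limma). FITM2, which helps droplets to bud and was named after its values were seen, rose by less, at 0.48 (adjusted p = 0.0322 from limma), and its call was lost without any 1 of the shRNF25 replicates (adjusted p = 0.0825, 0.124 and 0.151).

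In triglyceride and cholesteryl ester synthesis 3 of 14 tested genes were lower and 1 was higher, with a median of -0.20. GPAT3, an acyltransferase of the first step, had 590.3, 483.3 and 499.7 in shControl and 265.2, 331.5 and 311.7 in shRNF25 (log2 fold change -0.79, standard error 0.139, limma, adjusted p = 0.00428). Named after their values were seen, AGPAT4 was lower at -0.55 (adjusted p = 0.0267 from limma) and LPIN1, a phosphatidate phosphatase, was higher at 0.51 (adjusted p = 0.00595 from limma). SOAT1, which esterifies cholesterol, had -0.35 with an adjusted p of 0.175 from limma, and passed at -0.54 without shControl replicate 3 (adjusted p = 0.0113). The call of AGPAT4 held in 13 of 16 other settings, and that of LPIN1 in 15.

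Of 7 lipolysis genes 2 were lower, G0S2 and LIPE, and 1 was higher, LIPA. LIPE (hormone-sensitive lipase) went from 204.8 ± 22.8 to 128.0 ± 11.5 (SD, n = 3 each; log2 fold change -0.67, adjusted p = 0.0137 from limma). LIPA, the acid lipase of lysosomes, went from 1537 ± 111.6 to 2408 ± 121.8 (SD, n = 3 each; log2 fold change 0.65, adjusted p = 0.00295 from limma). ABHD5 (CGI-58), the activator of PNPLA2, had 0.22 and MGLL, the monoglyceride lipase, had -0.28, with adjusted p-values of 0.1399 and 0.0954 from limma. Without shControl replicate 1 both passed, at 0.24 and -0.34 (adjusted p = 0.0308 and 0.00851 from limma). The call of LIPE was lost without shRNF25 replicate 1 or 3 (adjusted p = 0.0594 and 0.0802 from limma).

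Among 14 tested genes of fatty acid uptake, binding and activation, 2 were lower and 2 were higher. FABP4, the binding protein of fat cells, rose from 28.1 ± 9.59 to 114.0 ± 8.95 (SD, n = 3 each; log2 fold change 2.04, adjusted p = 0.00110 from limma) while its relative FABP5 did not pass. Per library FABP4 had 35.4, 31.8 and 17.3 in shControl and 115.7, 104.4 and 122.0 in shRNF25. ACSL4, the synthetase that prefers arachidonic acid, had 2535, 1924 and 1820 in shControl and 1174, 1109 and 1085 in shRNF25 (log2 fold change -0.88, limma, adjusted p = 0.00242). ACSL1 did not pass at -0.28 (adjusted p = 0.103 from limma), and passed at -0.35 without shControl replicate 1 (adjusted p = 0.00719 from limma). FABP6 was lower at -1.60 (adjusted p = 0.0272 from limma) on normalized counts of 1.91 to 13.0. It passed the filter through the shControl libraries alone, with 6.38, 2.77 and 1.91 in shRNF25. It could therefore enter the test, and the counts of the lists, only as a lower gene. The call of FABP6 held in 9 of 15 other settings, with a range of -2.21 to -1.01 and a largest adjusted p of 0.104. DBI, the acyl-CoA binding protein, which was named after its values were seen, was higher at 0.45 (adjusted p = 0.0114 from limma) and lost its call without shRNF25 replicate 1 or 2 (adjusted p = 0.0813 and 0.0691 from limma). FABP3 had 0.74 with an adjusted p of 0.148 from limma and passed at 1.07 without shControl replicate 3 (adjusted p = 0.0286 from limma), and CD36, the fatty acid transporter, was at 2 reads or fewer in every library.

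Of 7 tested regulators 2 were lower. PPARD (PPARδ) had 2676, 2781 and 2575 in shControl and 1488, 1519 and 1444 in shRNF25 (log2 fold change -0.85, standard error 0.0958, limma, adjusted p = 0.000478). PPARA was lower at -0.45 (adjusted p = 0.0315 from limma), a call that held in 7 of 16 other settings (largest adjusted p = 0.163), and PPARG, at 0.05 (adjusted p = 0.751 from limma), did not pass. The hypoxia-inducible factors EPAS1 (HIF2α) and HIF1A did not pass either, at -0.25 and -0.20 with adjusted p-values of 0.204 and 0.556 from limma. HIF1A was at 15289 in shControl replicate 1 and at 7365 to 9786 in the other 5 libraries.

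**Figure D4:**
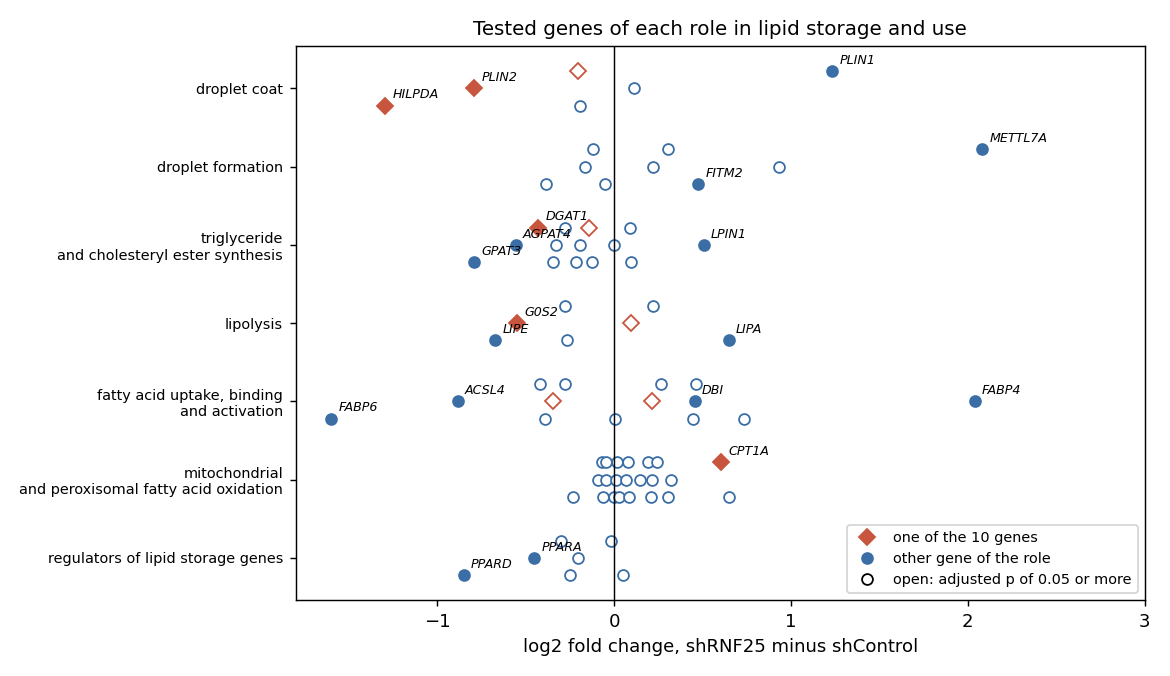
Log2 fold change of shRNF25 against shControl (horizontal axis) of every tested gene in each of 7 roles (vertical axis), with diamonds for the 10 genes, circles for the others, filled and named where the adjusted p from limma was below 0.05. Fatty acid oxidation genes gather near 0 apart from CPT1A and 1 gene that did not pass the test, while called genes lie on both sides in 4 of the other roles.

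The genes whose profile over the 6 libraries was most like that of HILPDA and PLIN2 were sought among the 11339 tested genes with a mean of at least 100, by the mean absolute difference of log2 values after each gene had been centred on its own mean. For HILPDA they were ADM, SOD2 and TNC, with differences of 0.06, 0.07 and 0.09, and for PLIN2 they included NTN4 and STAT6, with differences of 0.04 and 0.05. ADM, the vasodilator peptide adrenomedullin, had 518.5, 679.2 and 996.2 in shControl and 277.0, 291.8 and 322.2 in shRNF25, with shControl replicate 3 the highest, as for HILPDA. SOD2, TNC, NTN4 and STAT6 also had their highest value in shControl replicate 3. As these genes and ADM were picked for a like profile over the same 6 libraries, the shared highest library largely follows from the choice.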

How the data were processed

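Total RNA-seq of SW839 cells was used, 3 shRNF25 and 3 shControl libraries. By the study's methods ribosomal RNA was removed, libraries were stranded and DESeq2 was the test. The submitters' processing notes name fastp, HISAT2, HTSeq and GRCh38. The annotation and the strand setting of the counting are not given in the sources used here. The authors deposited 1 table of normalized counts (a signal, each library's reads over its scaling factor of 0.905 to 1.10), with no correction for gene length. The values gave back whole reads for 100% of entries (tolerance 0.1 reads), and the factors equaled DESeq2's size factors. Such factors balance depth and cannot show a change of all genes together.

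Log2(normalized count + 1) of 16554 genes (10 or more in 3 or more libraries) was fitted with limma 3.58.1 in R 4.3.3 (lmFit, eBayes with a trend, group as the only term, Benjamini-Hochberg adjustment over all tested genes). The count tests, edgeR 4.0.16 and DESeq2 1.42.0 on the recovered reads, were alternatives. Ratios within a library were compared with a two-sided exact permutation test. Beyond calling the libraries biological triplicates, the labels do not say that cultures were separate, and p-values measure the spread between these libraries, which may be technical.

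The 10 genes and the lists were chosen with earlier results of these data known. Named among the lists are genes called with a fold of at least 1.5 (at most 4 a list) and direct partners or paralogs of the 10 genes. Others are marked as named after their values were seen. For the 2 called genes of largest change, the 3 most similar genes were sought. A similar gene and a renal marker, with the sum over that marker list, are not reported here. LDAF1 was matched as TMEM159. CIDEB, MOGAT3, FABP1, FABP7, ACSL6, PPARGC1A and the markers PAX2, CDH16, ADIPOQ and LEP were not analysed here. Other settings were pseudocounts of 5 and 0.5, no filter, a filter at 50, quantile normalization, rescaling on the median ratio of genes averaging 100 or more, edgeR, DESeq2, the replicate number as a block, library weights by group, each library left out in turn, and a fold of at least 1.5. Positions are from GENCODE 29 (GRCh38), by symbol.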

Additional observations from a re-analysis of the deposited data

How the results depend on the processing

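HILPDA, PLIN2 and RNF25 kept their direction and their call under all 16 alternatives, with log2 fold changes of -1.47 to -1.06 for HILPDA and -0.92 to -0.62 for PLIN2. DGAT1 fell short with edgeR (-0.41), without a filter (-0.43), after quantile normalization (-0.30) or rescaling (-0.36), and with the replicate block (-0.43, adjusted p = 0.0526 from limma). It was called in 6 of 16 alternatives, and without 1 library at a time it was -0.53 to -0.29, called only without shControl replicate 1. G0S2 fell short after quantile normalization (-0.45) or rescaling (-0.48), and without shControl replicate 2 or any shRNF25 replicate (range -0.68 to -0.38 without 1 library). CPT1A ranged from 0.52 to 0.73 without 1 library and fell short without shRNF25 replicate 1 or 3 (adjusted p = 0.0520 and 0.0592 from limma). Without 1 library, PLIN3 ranged from -0.33 to -0.14, ACSL3 from 0.12 to 0.37, FABP5 from -0.44 to -0.28, DGAT2 from -0.21 to -0.016 and PNPLA2 from -0.016, without shControl replicate 1, to 0.26.

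Of the 10 genes, 2 were lower after quantile normalization, after rescaling and with a fold of at least 1.5, and without 1 library 2 to 6 were lower and 0 to 2 higher. In the role lists 7 were lower and 5 higher with a fold of at least 1.5, and without 1 library 5 to 23 were lower and 3 to 12 higher. Over all tested genes 1175 were lower with that fold, and without 1 library 860 to 2986 were lower and 768 to 2612 higher. The highest of each of these counts was found without shControl replicate 1 and the lowest without an shRNF25 replicate, for the 10 genes also without shControl replicate 2. The cause was not tested. Same-numbered libraries of the groups had correlations of their deviations of -0.06, -0.09 and 0.05, and differently numbered ones had -0.14 to 0.18. With 3 libraries a group, these values cannot tell whether same-numbered libraries were handled together. The replicate block called 3084 genes instead of 3525, and it changed no other call among the 10 than that of DGAT1. The rescaling moved the median of all genes by less than 0.1 in log2. The lowest count of any of the 10 genes in a library was 215 reads, which limits the precision of that value.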
